A study of Homo sapiens with 5 samples.

Results

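The genes of glucose use and of the response to low oxygen were followed across 5 lines of H157, an established human lung carcinoma cell line. The set was chosen by symbol, as 44 listed genes of glucose transport, glycolysis, lactate export, oxygen sensing and hypoxia-inducible factor (HIF) targets out of the 25343 genes in the table of counts, and all 44 were found in it. The study asked how isoforms of TEAD4, a transcription factor that brings the co-activator YAP to its target genes, change what YAP does in tumour cells. Each line stably carried 1 set of constructs and was sequenced as 1 library. The vector line (pCDNA-ctl) carried the empty plasmid. The YAP line expressed YAP alone. The line called here YAP/TEAD4-FL (YAP-TEAD434) expressed YAP with full-length TEAD4, and YAP/TEAD4-S (YAP-TEAD305) expressed YAP with the short splice form, which lacks the DNA-binding domain and keeps the part that binds YAP. The YAP/RBM4 line is labelled as carrying YAP with RBM4, a splicing factor. The paper reports western blots of transgene expression in its stable lines, which measure protein. The RBM4 counts of this line, given below, were not above vector beyond counting error. All 5 lines grew in RPMI-1640 medium with fetal bovine serum and were harvested in mid-log phase, and no label names a low-oxygen treatment, so that the values below are those of cells in ordinary culture.

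Glycolysis turns glucose into pyruvate in the cytosol, and lactate dehydrogenase turns pyruvate into lactate, which leaves the cell through monocarboxylate transporters. Pyruvate dehydrogenase kinases restrain the entry of pyruvate into mitochondria. When oxygen falls, the prolyl hydroxylases (EGLN genes) no longer mark the HIF alpha subunits for destruction by VHL, the alpha subunits pair with ARNT, and the pair binds short DNA motifs and raises the transcription of glycolytic enzymes, glucose transporters, VEGFA, ADM, CA9 and other genes. Tumour cells often keep glycolysis high in the presence of oxygen, and HIF protein is controlled mainly by its destruction, which RNA-seq does not measure.

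Depth was low and limits every value that follows. The strand setting of the counting, taken up below, is not stated in the sources read and could bear on every CPM as well. The libraries held 1399452 to 3015173 expected counts, and the 44 genes drew 0.308% to 0.368% of them, with a median of 35.1 to 83.6 counts per gene. Values are given as CPM, counts scaled to a library total of 1000000, and ratios between lines were taken after adding 0.5 CPM, so that ratios of low genes are drawn towards 1 on that scale. The ratios in plain numbers are of CPM without this addition, and their exact 95% intervals cover counting error only. A single library stands for each line, so that no test could be run and a difference cannot be told apart from the spread between cultures of 1 line. Comparison was limited to genes that averaged 1 CPM or more, which left 15024 in all and 43 of the 44. EGLN3, an oxygen-sensing prolyl hydroxylase, fell under this limit at 0.417 to 1.58 CPM. Of the transfected genes, YAP1 stood at 33.1 CPM in vector and at 59.4 to 136 CPM in the other lines and TEAD4 at 32.3 times vector in YAP/TEAD4-FL and 13.4 times vector in YAP/TEAD4-S. RBM4 was 167 CPM in the library labelled YAP/RBM4 against 150 CPM in vector, a ratio of 1.12 (0.965 to 1.29). RBM4 counts thus did not set this library apart, and YAP/RBM4 below means the library with that label. Among cell type markers, the epithelial genes KRT8 (253 to 1017 CPM), KRT18 and CDH1 were detected while EPCAM and KRT19 were under the 1 CPM limit, as were all 7 squamous and lung lineage genes with TP63, NKX2-1 and SFTPC at 0, and of 9 markers of other cell types CD3E, VWF and ALB were at 0. Of these markers 5 passed the limit, with the leukocyte gene PTPRC at 213 to 254 CPM, the endothelial gene PECAM1 at 94.0 to 148, the macrophage gene CD68 at 42.2 to 75.5, and the fibroblast collagens COL1A1 at 3.10 to 14.5 and COL3A1 at 0 to 3.76. Their part in the results was not tested.

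HIF genes and glycolytic enzymes differed in their summed levels. The 12 HIF targets outside glycolysis summed to 357 CPM in vector, 205 in YAP, 246 in YAP/TEAD4-FL, 172 in YAP/TEAD4-S and 313 in YAP/RBM4. The 3 HIF subunits summed to 217 CPM in vector, 118 in YAP, 100 in YAP/TEAD4-FL, 101 in YAP/TEAD4-S and 178 in YAP/RBM4. Both sums were highest in vector and next highest in YAP/RBM4. The 15 glycolytic enzymes summed to 1869 CPM in vector against 2008, 2559, 2635 and 2279 CPM in the lines in the same order, but this was not shared by most enzymes in YAP, where 10 of 15 were below vector, or in YAP/TEAD4-S, where 9 were. Without GPI and GAPDH the sum was 1.04 times vector (0.965 to 1.12) in YAP and 0.947 times (0.891 to 1.01) in YAP/TEAD4-S. It was 1.31 times (1.24 to 1.39) in YAP/TEAD4-FL and 1.21 times (1.14 to 1.29) in YAP/RBM4. The enzyme count in YAP/TEAD4-S depended on scaling. Only 27.7% of all genes compared were above vector in that line. Under the 4 other scalings named below, 10 or 11 of the 15 enzymes were above vector there. In YAP 10 of 15 stayed below vector under all 4. The sums were taken on library totals only. Of the 15 HIF subunits and targets, 9 were below vector in all 4 YAP-expressing lines, as were 13 of the 43 genes compared and 17.9% of all genes compared. None of the 15 glycolytic enzymes was below vector in all 4. These 4 comparisons share the vector library, so that a low or high value in it enters each of them.

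**Figure D1:**
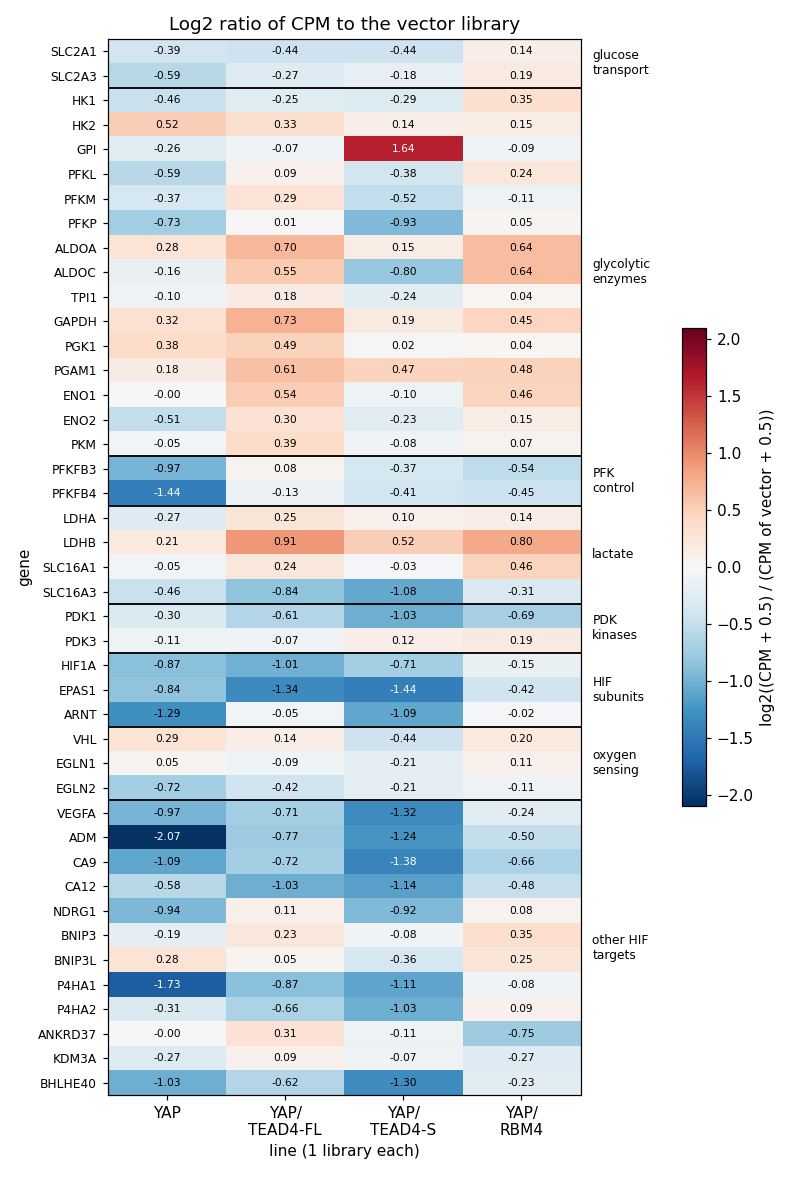
Log2 ratio of CPM (0.5 added) to the vector library for the 43 genes averaging 1 CPM or more, 1 row per gene ordered by role and 1 column per line, with blue for lower and red for higher than vector. The HIF subunits and most HIF targets are blue in YAP, YAP/TEAD4-FL and YAP/TEAD4-S, while GPI in YAP/TEAD4-S, at 1.64, is the deepest red. In YAP/TEAD4-FL the subunit ARNT, at -0.05, is near white, and 5 of the 12 HIF targets are above vector.

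Because both sets were counted in the same libraries, they can also be set against each other without any scaling between libraries. Per 100 counts of glycolytic enzymes, the HIF targets drew 19.1 counts in vector (17.7 to 20.7), 10.2 in YAP (9.01 to 11.5), 9.59 in YAP/TEAD4-FL (8.81 to 10.5), 6.54 in YAP/TEAD4-S (5.98 to 7.15) and 13.7 in YAP/RBM4 (12.7 to 14.8). Glucose-6-phosphate isomerase, GPI, was far higher in YAP/TEAD4-S than elsewhere, and without it the same measure was 23.4 in vector and 11.9, 11.0, 10.9 and 15.9 in the other lines. The vector value stayed the highest with and without GPI, and the interval of no other line reached it. Once GPI was out, the intervals of YAP, YAP/TEAD4-FL and YAP/TEAD4-S overlapped. The HIF subunits per 100 counts of enzymes without GPI were 14.2 in vector, 6.83 in YAP, 4.48 in YAP/TEAD4-FL, 6.42 in YAP/TEAD4-S and 9.06 in YAP/RBM4.

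All 3 HIF subunits were below vector in all 4 lines, and highest among the 4 in YAP/RBM4. HIF1A, the oxygen-regulated alpha subunit found in most cells, was 85.3 CPM in vector, 46.4 in YAP, 42.1 in YAP/TEAD4-FL, 52.1 in YAP/TEAD4-S and 76.7 in YAP/RBM4. Its ratio to vector was 0.544 (0.404 to 0.726) in YAP, 0.494 (0.383 to 0.633) in YAP/TEAD4-FL, 0.610 (0.490 to 0.760) in YAP/TEAD4-S and 0.899 (0.733 to 1.10) in YAP/RBM4. The first 3 intervals lay below 1 and that of YAP/RBM4 held it. EPAS1, which encodes HIF-2 alpha, was 120 CPM in vector, 67.2 in YAP, 47.1 in YAP/TEAD4-FL, 44.1 in YAP/TEAD4-S and 89.7 in YAP/RBM4. EPAS1 was below vector beyond counting error in all 4 lines, with the lowest ratio, 0.367 (0.295 to 0.454), in YAP/TEAD4-S and the highest, 0.746 (0.622 to 0.894), in YAP/RBM4. ARNT, the beta subunit that both alpha subunits need, was 11.2 CPM in vector, 4.29 in YAP, 10.8 in YAP/TEAD4-FL, 4.99 in YAP/TEAD4-S and 11.1 in YAP/RBM4. It thus fell into a high group (vector, YAP/TEAD4-FL, YAP/RBM4) and a low group (YAP, YAP/TEAD4-S), although the low values rest on few counts and the intervals of their ratios to vector, 0.128 to 0.962 and 0.217 to 0.883, were wide. HIF1A took 41.5% of the alpha-subunit counts in vector (36.9% to 46.3%) and 54.1% in YAP/TEAD4-S (48.2% to 60.0%), intervals that did not overlap, and 40.9% to 47.2% in the other 3 lines.

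**Figure D2:**
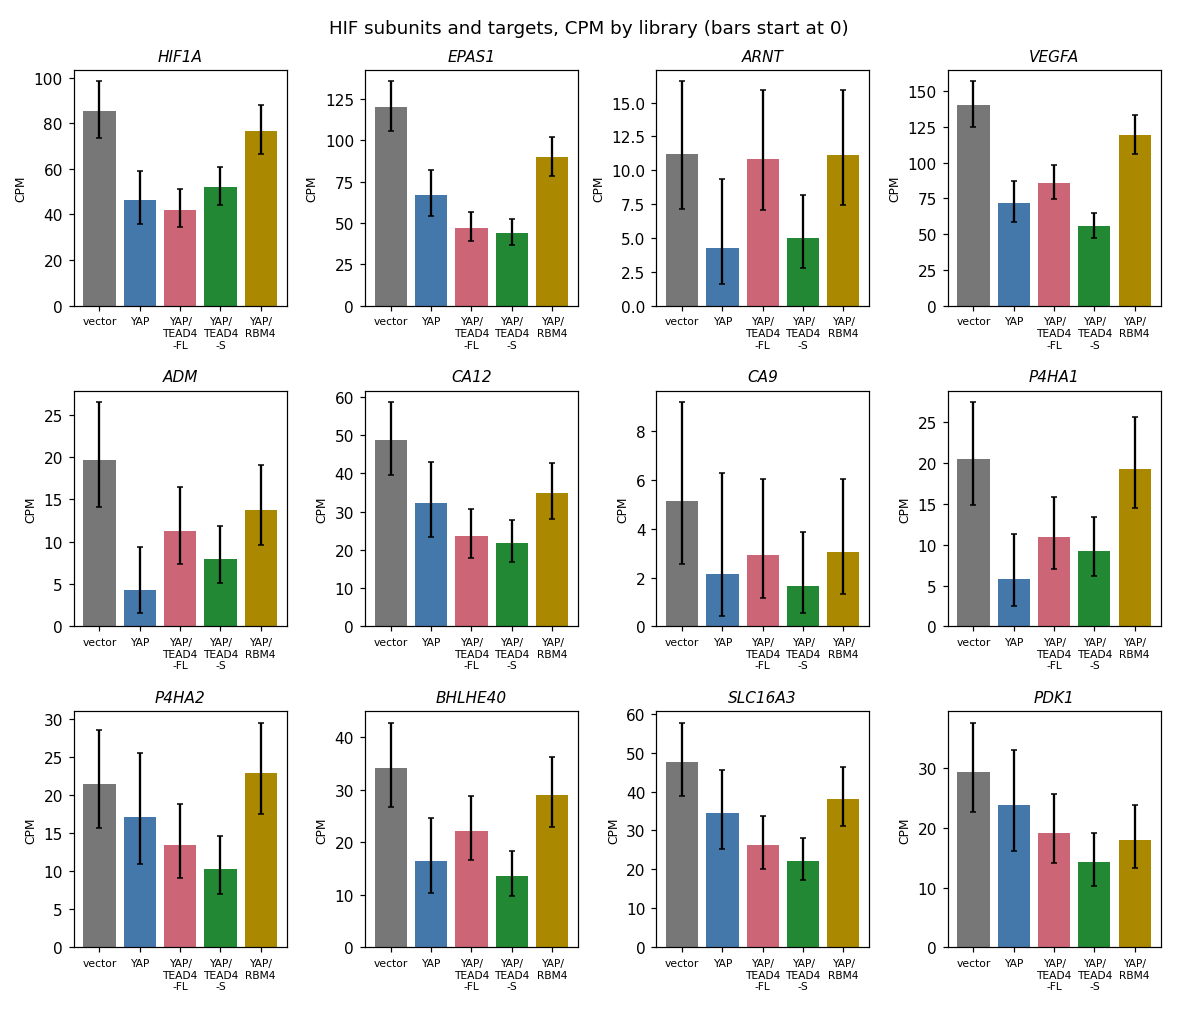
CPM of 3 HIF subunits and 9 HIF target genes (SLC16A3 and PDK1 among them) in the 5 libraries, with bars from 0 and exact 95% counting intervals as whiskers. Vector has the highest bar in 11 of the 12 panels, the exception being P4HA2, where YAP/RBM4 stands at 22.9 CPM against 21.4 CPM in vector. This share follows from the choice of panels, which leaves out NDRG1, BNIP3, BNIP3L, ANKRD37 and KDM3A, none of them highest in vector. Of the 12 HIF targets outside glycolysis, 6 were highest in vector.

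Oxygen-sensing genes shared no common direction. VHL, the ubiquitin ligase component that binds hydroxylated HIF alpha, was 175 CPM in vector, 214 in YAP, 193 in YAP/TEAD4-FL, 128 in YAP/TEAD4-S and 201 in YAP/RBM4. Its low value in YAP/TEAD4-S gave a ratio to vector of 0.734 (0.635 to 0.848), against 1.22 (1.05 to 1.43) in YAP. The value in YAP/TEAD4-S depended on scaling, since the VHL log2 ratio of -0.44 became -0.16 after subtracting the all-gene median of -0.29. The median of the oxygen-sensing genes there, -0.21, became 0.07 to 0.09 under the 4 other scalings named below. EGLN1, the main HIF prolyl hydroxylase in normal culture, ran from 129 CPM in YAP/TEAD4-S to 161 CPM in YAP/RBM4, and all 4 intervals of its ratio to vector held 1. EGLN2 was 29.3 CPM in vector, 17.6 in YAP, 21.7 in YAP/TEAD4-FL, 25.3 in YAP/TEAD4-S and 27.1 in YAP/RBM4. EGLN2 was below vector in all 4 lines, and beyond counting error in YAP only (0.601, 0.367 to 0.981). EGLN1 drew 83.2% to 89.7% of the counts of the 3 hydroxylases and EGLN3 0.257% to 0.803%.

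VEGFA, the vascular growth factor and the HIF target with the most counts, was 140 CPM in vector, 71.5 in YAP, 85.5 in YAP/TEAD4-FL, 55.7 in YAP/TEAD4-S and 119 in YAP/RBM4. Its ratio to vector was 0.509 (0.402 to 0.641) in YAP, 0.609 (0.508 to 0.730) in YAP/TEAD4-FL, 0.397 (0.327 to 0.481) in YAP/TEAD4-S and 0.847 (0.722 to 0.998) in YAP/RBM4. VEGFA was thus below vector beyond counting error in all 4 lines. The HIF target sum did not rest on VEGFA, since the other 11 targets per 100 glycolytic counts were 11.6 in vector and 6.67, 6.25, 4.43 and 8.50 in the other lines. ADM, the vasodilator peptide adrenomedullin, was 19.6 CPM in vector, 4.29 in YAP, 11.3 in YAP/TEAD4-FL, 7.98 in YAP/TEAD4-S and 13.7 in YAP/RBM4. BHLHE40, a transcriptional repressor induced by hypoxia, was 34.2 CPM in vector, 16.4 in YAP, 22.1 in YAP/TEAD4-FL, 13.6 in YAP/TEAD4-S and 29.0 in YAP/RBM4. Both genes were lowest in YAP or YAP/TEAD4-S, and the intervals of their ratios to vector held 1 in YAP/RBM4 alone. The ADM ratio of YAP to vector, 0.219 (0.0761 to 0.518), was the lowest ratio to vector of any gene of the set with an interval below 1.

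The carbonic anhydrases hydrate carbon dioxide at the cell surface and take part in pH control. CA12 was 48.7 CPM in vector, 32.3 in YAP, 23.6 in YAP/TEAD4-FL, 21.8 in YAP/TEAD4-S and 34.8 in YAP/RBM4, below vector beyond counting error in all 4 lines. CA9, used as a tissue marker of hypoxia, was 5.13 CPM in vector and 1.66 to 3.05 CPM elsewhere, and every interval of its ratio to vector held 1. Per kilobase of exon CA12 was above CA9 in every library, with 64.9% to 77.5% of their summed CPM per kilobase.

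The collagen prolyl 4-hydroxylases are needed for stable collagen. P4HA1 was 20.5 CPM in vector, 5.83 in YAP, 11.0 in YAP/TEAD4-FL, 9.23 in YAP/TEAD4-S and 19.3 in YAP/RBM4. P4HA2 was 21.4 CPM in vector, 17.1 in YAP, 13.4 in YAP/TEAD4-FL, 10.3 in YAP/TEAD4-S and 22.9 in YAP/RBM4. Both were at the vector level in YAP/RBM4 and lower in YAP/TEAD4-FL and YAP/TEAD4-S, where all 4 intervals lay below 1. They parted in YAP, where the ratio to vector was 0.284 (0.113 to 0.598) for P4HA1 and 0.800 (0.467 to 1.34) for P4HA2.

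The remaining HIF targets followed other patterns. NDRG1, a stress-induced gene of the N-myc downstream family, was 22.4 CPM in vector, 11.4 in YAP, 24.2 in YAP/TEAD4-FL, 11.6 in YAP/TEAD4-S and 23.7 in YAP/RBM4. This is the same high and low grouping of libraries as for ARNT. For both genes the 5 ratios computed between a low and a high library had intervals that left out 1. The groups were read from these same values, so this is a description only. BNIP3, a mitophagy receptor, was 17.2 CPM in vector, 15.0 in YAP, 20.3 in YAP/TEAD4-FL, 16.3 in YAP/TEAD4-S and 22.1 in YAP/RBM4, and its relative BNIP3L was 11.7, 14.3, 12.1, 8.95 and 13.9 CPM in the same order. ANKRD37 ran from 5.34 CPM in YAP/RBM4 to 11.7 CPM in YAP/TEAD4-FL, and KDM3A, a histone demethylase, from 5.72 to 7.49 CPM. For BNIP3, BNIP3L, ANKRD37 and KDM3A all 16 intervals of ratios to vector held 1.

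The DNA motif that HIF dimers bind has the core ACGTG on either strand (read as CACGT on the other), and 250 bases upstream of annotated starts were searched for it in the RefSeq promoter table (GRCh38.p14). A start window was given for 38 of the 44 genes, of which 22 (57.9%) held the core in at least 1 window, against 21.7% of 27305 genes in the whole table. The genes of the set have more windows each, and per window the shares were 37.3% of 67 against 18.5% of 35116. It was found in 10 of 15 glycolytic enzymes, in both PDK genes, in 5 of 9 other HIF targets and in none of the 3 HIF subunits. The core also lies within CACGTG, the E-box bound by many other factors, which counts as 2 adjacent matches. A match is a description of the letters and no measurement of binding, and a window without one says only that these letters are not in it. The windows of 6 genes are printed because they set HIF targets whose values were below vector in all 4 lines (BHLHE40, P4HA1, CA9, PDK1) beside glycolytic genes with the core that were not (LDHA, GAPDH), with every core in capitals, each read 5′ to 3′ on the strand of its gene and ending at the base before the start. They lie at chr3:4979187-4979436 on the plus strand for BHLHE40, chr10:73096867-73097116 on the minus strand for P4HA1, chr9:35673678-35673927 on the plus strand for CA9, chr2:172555840-172556089 on the plus strand for PDK1, chr11:18394313-18394562 on the plus strand for LDHA and chr12:6535014-6535263 on the plus strand for GAPDH.
BHLHE40: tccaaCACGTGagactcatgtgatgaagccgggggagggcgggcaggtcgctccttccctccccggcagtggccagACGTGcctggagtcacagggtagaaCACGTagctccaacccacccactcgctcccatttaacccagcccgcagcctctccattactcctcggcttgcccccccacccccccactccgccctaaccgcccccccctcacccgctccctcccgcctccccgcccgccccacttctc
P4HA1: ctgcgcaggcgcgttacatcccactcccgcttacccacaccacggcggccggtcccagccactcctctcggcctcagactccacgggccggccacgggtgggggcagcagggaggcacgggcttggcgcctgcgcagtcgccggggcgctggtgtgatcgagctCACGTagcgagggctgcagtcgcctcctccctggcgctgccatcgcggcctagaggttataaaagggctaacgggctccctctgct
CA9: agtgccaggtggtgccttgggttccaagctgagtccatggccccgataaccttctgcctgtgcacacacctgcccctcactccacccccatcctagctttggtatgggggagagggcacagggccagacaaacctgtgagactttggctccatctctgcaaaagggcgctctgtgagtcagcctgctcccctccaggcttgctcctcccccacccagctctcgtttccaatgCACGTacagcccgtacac
PDK1: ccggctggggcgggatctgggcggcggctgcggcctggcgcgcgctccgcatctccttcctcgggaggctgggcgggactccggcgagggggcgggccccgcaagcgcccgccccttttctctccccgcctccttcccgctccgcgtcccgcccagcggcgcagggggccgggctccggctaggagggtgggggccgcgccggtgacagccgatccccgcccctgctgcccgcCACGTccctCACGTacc
LDHA: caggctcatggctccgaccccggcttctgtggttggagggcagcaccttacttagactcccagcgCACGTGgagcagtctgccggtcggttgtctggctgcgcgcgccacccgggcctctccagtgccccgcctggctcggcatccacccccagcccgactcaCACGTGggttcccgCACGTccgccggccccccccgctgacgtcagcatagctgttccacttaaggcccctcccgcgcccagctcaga
GAPDH: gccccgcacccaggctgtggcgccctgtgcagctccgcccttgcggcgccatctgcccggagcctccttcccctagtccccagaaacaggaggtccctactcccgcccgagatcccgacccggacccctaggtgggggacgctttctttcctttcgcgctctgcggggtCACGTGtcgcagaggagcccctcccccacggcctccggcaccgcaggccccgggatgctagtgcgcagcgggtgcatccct
LDHA, with 5 matches, and GAPDH, with 2, thus had the core in this window and were not below vector beyond counting error in any line (LDHA in YAP 0.830, 0.603 to 1.14). Of the other 4, BHLHE40, P4HA1 and PDK1 were in 3 lines and CA9, at low counts, in 0. ADM and CA12, also HIF targets below vector in all 4 lines, had no core in their windows. PDK1 and LDHA each have another window, not printed, without the core. The printed genes were picked for holding it, and no link between the core and the values was tested.

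Among the glycolytic enzymes the direction depended on the line and differed between enzymes. In YAP/TEAD4-FL 13 of the 15 were above vector (median log2 ratio 0.33, all genes 0.09), in YAP/RBM4 also 13 (0.15, all genes 0.17), in YAP 5 (-0.10, all genes 0.00060) and in YAP/TEAD4-S 6 (-0.10, all genes -0.29). The direction in YAP/TEAD4-S turned under every other scaling, with medians of 0.18 to 0.19, and in YAP/RBM4 the 13 above vector became 7 under TMM, DESeq2 and centring, with medians of -0.03 to 0.00, and 10 without the 50 most abundant genes. In YAP/TEAD4-FL the median kept its sign under all 4, at 0.23 to 0.29.

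**Figure D3:**
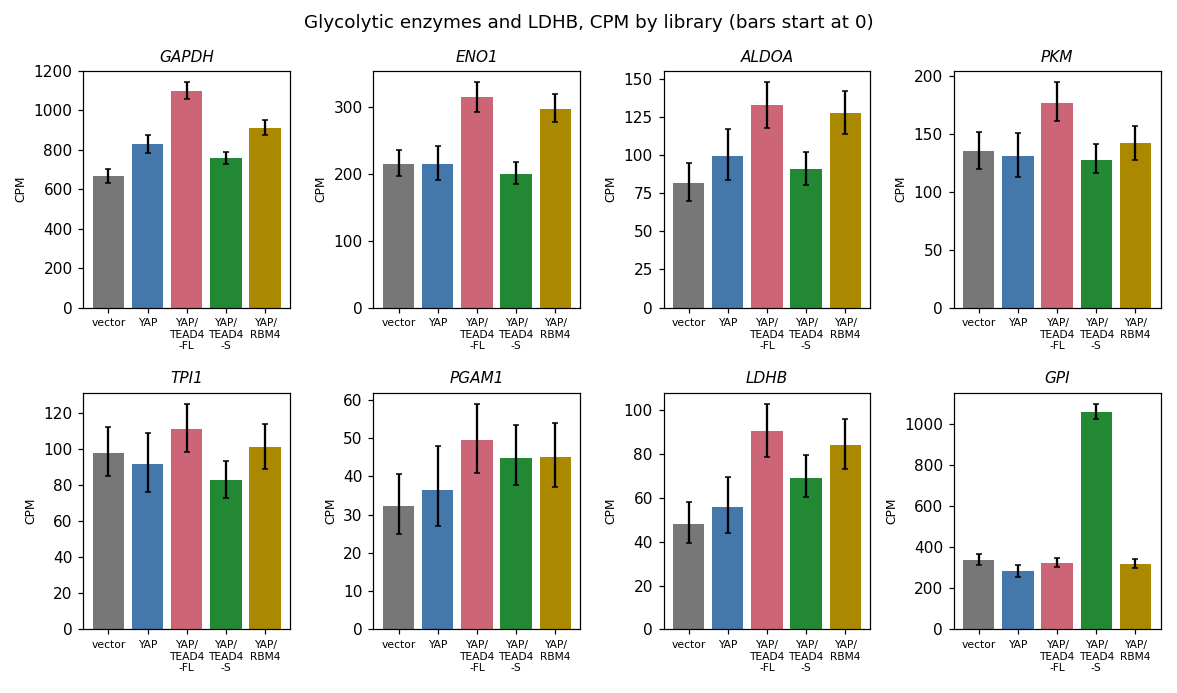
CPM of 7 glycolytic enzymes and of LDHB in the 5 libraries, with bars from 0 and exact 95% counting intervals as whiskers. YAP/TEAD4-FL has the highest bar in every panel except GPI, where YAP/TEAD4-S reaches 1059 CPM against 283 to 339 CPM elsewhere. This follows from the choice of panels, which leaves out HK1, PFKL, PFKP and ALDOC, highest in YAP/RBM4, and HK2, highest in YAP. Of the 15 glycolytic enzymes, 9 were highest in YAP/TEAD4-FL.

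GPI, which interconverts glucose 6-phosphate and fructose 6-phosphate, was the exception among the enzymes. It was 339 CPM in vector, 283 in YAP, 324 in YAP/TEAD4-FL, 1059 in YAP/TEAD4-S and 319 in YAP/RBM4. Its value in YAP/TEAD4-S was 3.12 times vector (2.88 to 3.39), 3.75 times YAP (3.38 to 4.18) and 3.27 times YAP/TEAD4-FL (3.02 to 3.54). Of the 43 genes compared, GPI was the only one at least 2-fold above vector in any line. The genes annotated around it on chromosome 19, looked up after this value was seen, did not follow. KIAA0355, the next on the table upstream, was 127 CPM in YAP/TEAD4-S against 184 to 209 CPM elsewhere, PDCD2L downstream 1.99 CPM against 1.43 to 3.76 CPM, and UBA2 22.6 CPM against 12.1 to 30.5 CPM.

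GAPDH, the dehydrogenase step, was the most abundant gene of the set per kilobase of exon in all 5 libraries, at a mean of 356 CPM per kilobase, and at 496 per kilobase of its longest transcript. ENO1 (47.6) and GPI (43.5) came next by exon length, in the reverse order by longest transcript (97.5 and 107), and the place of GPI rests on YAP/TEAD4-S. GAPDH, chosen for naming after its values were seen, was 665 CPM in vector, 828 in YAP, 1100 in YAP/TEAD4-FL, 757 in YAP/TEAD4-S and 911 in YAP/RBM4, with ratios to vector of 1.14 (1.07 to 1.22) to 1.65 (1.55 to 1.77) and all 4 intervals above 1. The enzymes given by range were TPI1 at 82.6 to 111 CPM, PGK1 at 25.2 to 35.5 CPM, PGAM1 at 32.2 to 49.4 CPM and PKM at 128 to 177 CPM, each highest in YAP/TEAD4-FL. Without GPI and GAPDH the other 13 enzymes still summed to 1135 CPM in YAP/TEAD4-FL and 1049 CPM in YAP/RBM4 against 864 CPM in vector, 897 CPM in YAP and 819 CPM in YAP/TEAD4-S. GAPDH, PGK1, ENO1, TPI1, ALDOA, PKM, PGAM1, LDHA and LDHB have near-identical pseudogene copies, so the division of their reads is uncertain.

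Glucose enters through SLC2A1 and SLC2A3 and is trapped by hexokinases. SLC2A1 was 62.0 CPM in vector, 47.2 in YAP, 45.5 in YAP/TEAD4-FL, 45.5 in YAP/TEAD4-S and 68.3 in YAP/RBM4. SLC2A3 was 33.5 CPM in vector, 22.1 in YAP, 27.7 in YAP/TEAD4-FL, 29.4 in YAP/TEAD4-S and 38.3 in YAP/RBM4. Both were highest in YAP/RBM4 and next in vector, and their sum was below vector beyond counting error in the other 3 lines, with ratios of 0.725 to 0.784. Under the 4 other scalings the median of the pair in YAP/TEAD4-S, -0.31, became -0.04 to -0.02 with 1 gene above vector and 1 below, and in YAP/RBM4 1 was above and 1 below under 3 of them, so that only the values in YAP and YAP/TEAD4-FL kept their direction. HK2, the hexokinase typical of tumours, was 138 CPM in vector, 198 in YAP, 173 in YAP/TEAD4-FL, 152 in YAP/TEAD4-S and 153 in YAP/RBM4, while HK1, the widely expressed form, was 36.7, 26.4, 30.8, 29.9 and 46.8 CPM. HK1 therefore took 21.1% of hexokinase counts in vector (17.0% to 25.5%) and 11.8% in YAP (8.43% to 15.9%), intervals that did not overlap, and 15.1% in YAP/TEAD4-FL, 16.4% in YAP/TEAD4-S and 23.5% in YAP/RBM4.

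The phosphofructokinases catalyse the committed step, and PFKFB enzymes make and remove the metabolite that activates them. PFKP was 53.6 CPM in vector, 32.2 in YAP, 53.8 in YAP/TEAD4-FL, 27.9 in YAP/TEAD4-S and 55.4 in YAP/RBM4. PFKL was 19.6, 12.9, 20.9, 14.9 and 23.3 CPM in the same order, and PFKM 11.2, 8.57, 13.8, 7.63 and 10.3 CPM. PFKP again was high in vector, YAP/TEAD4-FL and YAP/RBM4 and low in YAP and YAP/TEAD4-S, with ratios to vector of 0.600 (0.415 to 0.853) and 0.520 (0.387 to 0.694) in the low pair, while the shares of the 3 genes in their summed counts moved little, PFKP holding 55.3% to 63.5%. PFKFB3 was 7.46 CPM in vector, 3.57 in YAP, 7.93 in YAP/TEAD4-FL, 5.64 in YAP/TEAD4-S and 4.96 in YAP/RBM4, and PFKFB4 was 2.80, 0.715, 2.50, 1.99 and 1.91 CPM. At these counts every PFKFB interval in the 8 comparisons held 1.

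The minor aldolase and enolase genes held small shares throughout. ALDOA was 81.6 CPM in vector, 99.3 in YAP, 133 in YAP/TEAD4-FL, 90.7 in YAP/TEAD4-S and 128 in YAP/RBM4, against 1.66 to 5.34 CPM for ALDOC. ENO1 was 215 CPM in vector, 215 in YAP, 314 in YAP/TEAD4-FL, 200 in YAP/TEAD4-S and 297 in YAP/RBM4, against 10.0 to 17.9 CPM for ENO2. ALDOA and ENO1 were both above vector beyond counting error in YAP/TEAD4-FL (1.63, 1.35 to 1.97, and 1.46, 1.30 to 1.64) and in YAP/RBM4 (1.56, 1.30 to 1.89, and 1.38, 1.23 to 1.55).

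At the end of the pathway the 2 lactate dehydrogenase genes and the 2 lactate transporters parted. LDHA, whose form of the enzyme favours lactate formation, was 54.2 CPM in vector, 45.0 in YAP, 64.8 in YAP/TEAD4-FL, 58.2 in YAP/TEAD4-S and 59.9 in YAP/RBM4, with all 4 intervals of the ratio to vector holding 1. LDHB was 48.0 CPM in vector, 55.7 in YAP, 90.4 in YAP/TEAD4-FL, 69.3 in YAP/TEAD4-S and 84.0 in YAP/RBM4, and its ratio to vector was 1.88 (1.48 to 2.41) in YAP/TEAD4-FL, 1.44 (1.13 to 1.85) in YAP/TEAD4-S and 1.75 (1.38 to 2.23) in YAP/RBM4. LDHA accordingly took 53.0% of their counts in vector (46.1% to 59.7%) and 41.6% to 45.6% in the other lines, and the lowest of these, 41.6% in YAP/RBM4 (36.6% to 46.8%), still overlapped vector narrowly. SLC16A3, which encodes the lactate exporter MCT4 and is a HIF target, was 47.6 CPM in vector, 34.4 in YAP, 26.3 in YAP/TEAD4-FL, 22.2 in YAP/TEAD4-S and 38.2 in YAP/RBM4. SLC16A1, which encodes MCT1, was 12.6, 12.1, 15.0, 12.4 and 17.6 CPM. SLC16A3 was below vector beyond counting error in YAP/TEAD4-FL (0.553, 0.397 to 0.764) and YAP/TEAD4-S (0.467, 0.338 to 0.642), whereas all intervals for SLC16A1 held 1.

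PDK1 and PDK3 differed in the same way. PDK1, a HIF target, was 29.4 CPM in vector, 23.8 in YAP, 19.1 in YAP/TEAD4-FL, 14.2 in YAP/TEAD4-S and 18.0 in YAP/RBM4. PDK3 was 129, 120, 123, 141 and 147 CPM. The share of PDK1 in the counts of the pair was 18.5% in vector (14.5% to 23.1%), 9.21% in YAP/TEAD4-S (6.74% to 12.2%) and 10.9% in YAP/RBM4 (8.09% to 14.2%), and neither of the last 2 intervals overlapped that of vector. In YAP/RBM4 the intervals of PDK1, EPAS1, VEGFA and CA12 lay below 1, and the PDK1 ratio, 0.612 (0.410 to 0.906), was the lowest of the 4.

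Counts of genes at least 2-fold away from vector put these values against the rest of the transcriptome. In YAP 6 of 43 genes were at least 2-fold lower (PFKFB4, ARNT, ADM, CA9, P4HA1 and BHLHE40) where 9.57% of all compared genes were, and 0 were 2-fold higher where 4.90% of all genes were. In YAP/TEAD4-FL 3 were lower (HIF1A, EPAS1 and CA12), against 6.00% of all genes, and 0 higher, against 8.90%. In YAP/TEAD4-S 11 were lower (SLC16A3, PDK1, EPAS1, ARNT, VEGFA, ADM, CA9, CA12, P4HA1, P4HA2 and BHLHE40), against 11.0% of all genes, and 1 higher (GPI), against 3.50%. In YAP/RBM4 0 were lower and 0 higher, against 3.47% and 9.22% of all genes. The intervals of PFKFB4 and CA9 held 1 in these comparisons. The 11 in YAP/TEAD4-S depended on scaling. In that library 46.2% of counts lay in its 50 most abundant genes against 32.0% to 34.5% elsewhere, and its all-gene median was -0.29. With any of the 4 other scalings 4 genes were 2-fold lower there (EPAS1, VEGFA, CA9 and BHLHE40) and GPI was still higher. The medians of the HIF subunits and of the HIF targets stayed below 0 in all 4 lines under every scaling.

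The 3 lines labelled as carrying a partner were also compared with YAP alone. With full-length TEAD4 5 genes were at least 2-fold higher than in YAP (PFKFB3, PFKFB4, ARNT, ADM and NDRG1), against 11.6% of all genes, and 0 lower, against 3.94%. With TEAD4-S 2 were higher (GPI and PFKFB4), against 6.10%, and 0 lower, against 8.62%. In YAP/RBM4 4 were higher (ARNT, ADM, NDRG1 and P4HA1), against 13.3%, and 0 lower, against 2.94%. By its label this library should carry added RBM4, while its RBM4 CPM was 0.828 times YAP (0.710 to 0.964). These 3 comparisons share the YAP library, which is the shallowest at 1399452 counts, and the intervals of PFKFB3 and PFKFB4 held 1. ADM in YAP/RBM4 was 3.21 times YAP (1.34 to 9.31) and P4HA1 3.32 times (1.60 to 8.31). The YAP/RBM4 line was also above YAP beyond counting error for HIF1A (1.65, 1.24 to 2.22), EPAS1 (1.34, 1.05 to 1.72) and VEGFA (1.66, 1.33 to 2.11), whereas EPAS1 in YAP/TEAD4-FL was below YAP (0.702, 0.529 to 0.933).

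The 2 TEAD4 isoforms were compared directly. In YAP/TEAD4-S 3 genes were at least 2-fold below YAP/TEAD4-FL (ALDOC, whose interval held 1, ARNT and NDRG1), against 11.2% of all genes, and 1 was 2-fold above it (GPI), against 2.22%. The median log2 ratio of the 43 genes was -0.41 with an all-gene median of -0.38, so the set as a whole lay close to the rest of the genes. The 12 HIF targets summed to 0.702 of the YAP/TEAD4-FL value (0.623 to 0.791) and the 15 enzymes to 1.03 (0.996 to 1.06), GPI included. The level sum of the enzymes rested on GPI. Without it they summed to 1576 CPM in YAP/TEAD4-S against 2235 CPM in YAP/TEAD4-FL, so that the enzymes were lower there as well. Among abundant enzymes ENO1 was 0.638 times (0.573 to 0.712), ALDOA 0.683 times (0.578 to 0.805) and GAPDH 0.688 times (0.651 to 0.728) the YAP/TEAD4-FL value, while PDK3 was 1.14 times (0.982 to 1.33).

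Several genes of the set lie opposite to other genes, and the setting with which strands were counted was not stated in the sources read, so that reads of overlapping genes on opposite strands cannot be told apart. If the library kit marked strand and the counting used the opposite setting, the CPM of every gene, overlapping or not, would hold reads of the wrong strand, which was not tested. The rank of GAPDH by CPM among all genes ran from 84 in YAP/TEAD4-FL to 134 in vector. Of 12 such pairs with both genes in the table, over 11 genes of the set, the opposite gene drew more counts in 7. HIF1A-AS2, an antisense RNA that RefSeq places over the end of HIF1A, was 8639 CPM in vector, 2909 in YAP, 2828 in YAP/TEAD4-FL, 4712 in YAP/TEAD4-S and 4699 in YAP/RBM4. HIF1A-AS1 was 777, 693, 246, 297 and 346 CPM in the same order. All 3 genes of the locus were highest in vector, with many more counts on the antisense genes than on HIF1A. P4HA2-AS1, opposite P4HA2, was 696 CPM in vector, 493 in YAP, 273 in YAP/TEAD4-FL, 313 in YAP/TEAD4-S and 396 in YAP/RBM4. CSNK1D, a kinase gene opposite SLC16A3, was 186, 134, 96.4, 89.9 and 98.5 CPM. Both were highest in vector, as SLC16A3 was, while P4HA2 was highest in YAP/RBM4. The values of HIF1A and SLC16A3 thus shared their highest library with those of their opposite genes, whose role in them was not tested. ARHGEF39, opposite CA9, was 340 to 520 CPM with its highest value in YAP, the line where CA9 stood at 2.14 CPM. EPAS1, ARNT, ADM and CA12 have no exon base opposite an annotated exon of another gene (GENCODE on GRCh37) and P4HA1, VEGFA and PDK1 have 1.30% to 3.00% of their exon bases opposite others. NDRG1, BNIP3 and KDM3A have none either. In 7 genes over 10% of exon bases lie opposite others, namely ANKRD37 (40.3%), CA9 (35.7%), VHL (23.5%), GAPDH (17.6%), ALDOA (13.6%), BHLHE40 (12.8%) and ALDOC (11.3%). In 4 genes over 10% lie in other genes of the same strand, namely EGLN1 (55.8%), ALDOA (42.8%), LDHB (33.4%) and EGLN2 (30.6%). What these overlaps did to the values was not tested. Among the genes free of opposite exons, EPAS1, ARNT, ADM and CA12 were below vector in all 4 lines, with an ARNT ratio of 0.967 (0.535 to 1.76) in YAP/TEAD4-FL. NDRG1, BNIP3 and KDM3A were above vector in YAP/TEAD4-FL, each with an interval that held 1. A wrong strand setting would reach these genes too, and its part was not tested.

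**Figure D4:**
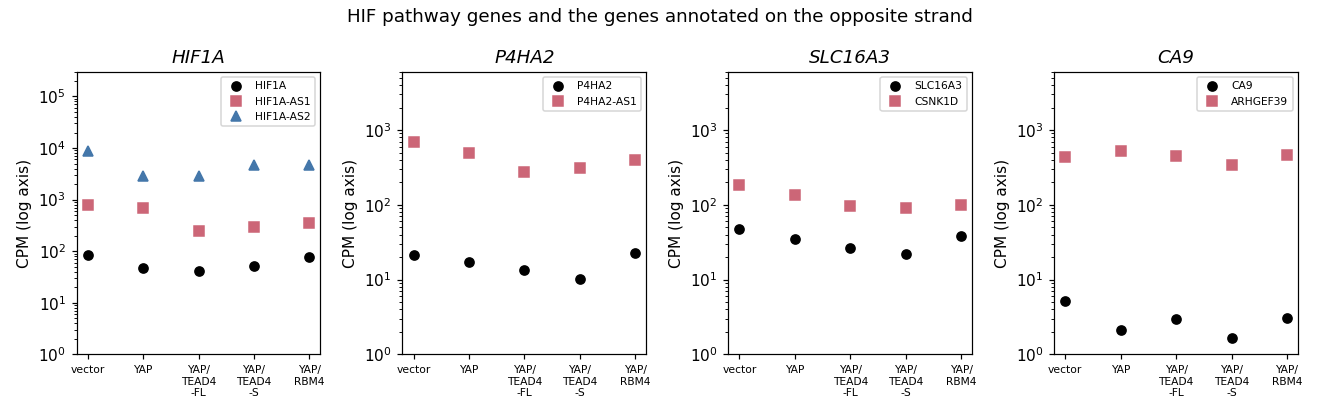
CPM on a log axis of HIF1A, P4HA2, SLC16A3 and CA9 (black) and of the genes on the opposite strand (coloured) in the 5 libraries. The opposite genes lie above the HIF genes in all 4 panels, for example 8639 CPM for HIF1A-AS2 against 85.3 CPM for HIF1A in vector.

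The other genes of these pathways were read from lists chosen with earlier results known. Of 29 other glycolysis genes 19 could be compared, and in YAP/TEAD4-S 5 were at least 2-fold lower and 0 higher, in YAP/TEAD4-FL 2 lower and 2 higher, in YAP 0 lower and 0 higher, and in YAP/RBM4 0 lower and 2 higher. Of all genes 11.0% were lower in YAP/TEAD4-S, 6.00% lower and 8.90% higher in YAP/TEAD4-FL and 9.22% higher in YAP/RBM4, so that 2 of 19 is near the background. In YAP/TEAD4-S the list stood near the rest of the genes (median log2 ratio -0.33, all genes -0.29). PGAM2 and SLC2A6 were among those 5, at 42.1 CPM against 102 CPM in vector and 13.9 CPM against 29.3 CPM, but every exon base of PGAM2 lies opposite another gene. Of 32 other hypoxia-induced genes compared, 6 were lower and 0 higher in YAP/TEAD4-S, 2 lower and 1 higher in YAP, 0 lower and 2 higher in YAP/TEAD4-FL and 2 lower and 0 higher in YAP/RBM4. Of all genes 11.0% were lower in YAP/TEAD4-S, 9.57% lower and 4.90% higher in YAP, 8.90% higher in YAP/TEAD4-FL and 3.47% lower in YAP/RBM4. STC2, a secreted glycoprotein, was 126 CPM in vector, 67.9 in YAP, 85.1 in YAP/TEAD4-FL, 55.7 in YAP/TEAD4-S and 166 in YAP/RBM4. It was lowest in YAP/TEAD4-S and next lowest in YAP, whereas TFRC, the transferrin receptor, was lowest in vector at 6.99 CPM and highest in YAP/TEAD4-FL at 18.4 CPM. The list median lay below the all-gene median in YAP (-0.31 and 0.00060), YAP/TEAD4-FL (-0.13 and 0.09), YAP/TEAD4-S (-0.41 and -0.29) and YAP/RBM4 (0.11 and 0.17). Of 16 other HIF pathway components, 8 were above vector in YAP, 5 in YAP/TEAD4-S, 12 in YAP/RBM4 and 12 in YAP/TEAD4-FL. HSP90AA1 was among those in YAP/TEAD4-FL, at 451 CPM against 262 CPM in vector. Of all genes 27.7% were above vector in YAP/TEAD4-S, 64.3% in YAP/RBM4 and 57.8% in YAP/TEAD4-FL. The list median was -0.01 in YAP, -0.29 in YAP/TEAD4-S and 0.16 in YAP/RBM4, near the all-gene medians of 0.00060, -0.29 and 0.17. In YAP/TEAD4-FL the list median was 0.44, above the all-gene median of 0.09. Of 12 genes of the pyruvate dehydrogenase complex and mitochondrial pyruvate entry all were below vector in YAP/TEAD4-S (median -0.41, all genes -0.29), and PDHB was 6.30 CPM there against 14.9 CPM in vector.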

How the data were processed

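RNA of 5 H157 lines, 1 library each, was sequenced by the authors, who aligned reads to hg19 with Bowtie2 2.2.5 and estimated expression with RSEM, whose version is absent from the sources read. The deposited table holds RSEM expected counts per gene symbol, not normalized, and the study's own test between lines was not repeated. The methods give a fragment length of 75 bases with an SD of 10. The labels name both polyadenylated RNA and a kit that removes ribosomal RNA, so the RNA selection is uncertain. The column names carry the words second strand, and no source read states how strands were counted.

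Members and lists were chosen with earlier results of these data known. All 5 columns of the table were used. CPM was taken on the library total of 1399452 to 3015173 counts, ratios as log2(CPM + 0.5) differences, and a gene was called at 2-fold, among genes with a mean CPM of 1 or more. The set is 44 genes given by symbol, and all members are accounted for. Values in every library are given for isoenzyme families, for members at least 2-fold away with a counting interval beyond 1, and for HIF1A, EPAS1, ARNT, VHL and VEGFA, the rest by range, and up to 3 genes are named from each other list. Counts were rounded for exact conditional 95% intervals (Clopper-Pearson), which cover counting error only. With 1 library per line there was no test and no replicate could be left out. edgeR 4.0.16 (TMM) and DESeq2 1.42.0 (size factors) served only as alternative scalings, in R 4.3.3, and the rest ran in Python 3.11.15 with pandas 2.3.3 and scipy 1.17.1. The ratio step was tested on simulated counts. Exon lengths and overlaps come from GENCODE v44 on GRCh37, where all 44 genes and 22932 of 25343 symbols were found, and upstream sequences from RefSeq on GRCh38.p14. Genes 2-fold away were also counted without a filter, with a filter at 10 CPM, with 0.1 or 2 CPM added, at 1.5-fold, and with an interval beyond 1. Values of 2 genes of the other lists are not reported here.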

Additional observations from a re-analysis of the deposited data

How the results depend on the processing

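Of 36 single ratios of at least 2-fold, 24 stayed 2-fold with TMM factors, 24 with DESeq2 size factors, 27 with totals that leave out the 50 most abundant genes, 23 after subtracting the all-gene median, 36 with 0.1 CPM added and 19 with 2 CPM added, and none of them changed direction. The comparisons with YAP/TEAD4-S moved in both counts and medians. Against vector its 12 genes at least 2-fold away became 5 under each of the 4 scalings, and the median log2 ratio of -0.36 became -0.08 with TMM, -0.08 with DESeq2, -0.10 without the 50 genes and -0.07 after centring. The median of YAP/TEAD4-S against YAP, -0.05, became 0.27, 0.26, 0.29 and 0.24 in the same order, so its sign turned with scaling, the cause of which was not tested, and that of YAP/TEAD4-S against YAP/TEAD4-FL, -0.41, became -0.03, -0.03, -0.11 and -0.03, with 2, 2, 2 and 1 genes 2-fold away instead of 4. YAP/TEAD4-FL against YAP had 3 in place of 5 with TMM, DESeq2 or centring, and the median of YAP/RBM4 against YAP became 0.25 after centring. With 2 CPM added the counts against vector were 3 in YAP and 1 in YAP/TEAD4-FL, those against YAP were 2 in YAP/TEAD4-FL and 1 in the short-isoform line, and 1 gene was away between the isoforms. With a filter at 10 CPM they were 3 for YAP against vector, 2 and 1 for YAP/TEAD4-FL and YAP/TEAD4-S against YAP, and 2 between the isoforms, and with no filter 1 for YAP/RBM4 against vector (EGLN3). At 1.5-fold 15 genes were away from vector in YAP, 15 in YAP/TEAD4-FL and 6 in YAP/RBM4, 12, 12 and 17 from YAP in YAP/TEAD4-FL, YAP/TEAD4-S and the RBM4 line, and 11 between the isoforms. Requiring an interval beyond 1 left, against YAP, 3 genes in YAP/TEAD4-FL and 1 in the short-isoform line. Measures without GPI, GAPDH or VEGFA were added after seeing the data, and vector stayed highest in each of the counts per 100 enzyme counts. No paired analysis was possible because each line has 1 library. The 9 genes of the set under 10 counts in YAP, and 3 or 4 in the other libraries, limit what can be read from the lowest values.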

Other observations

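Genes of the tricarboxylic acid cycle, which burns acetyl units in mitochondria, had higher medians than all genes in YAP/TEAD4-FL and YAP/RBM4, and so did 9 reference genes used by every cell (medians 0.58 and 0.66), so that nothing particular to the cycle is shown. Of 17 cycle genes 13 were above vector in YAP/TEAD4-FL (median log2 ratio 0.56, all genes 0.09) and 14 in YAP/RBM4 (0.59, all genes 0.17). In YAP 9 were (0.03, all genes 0.00060) and in YAP/TEAD4-S 8 (-0.06, all genes -0.29), where 27.7% of all genes were above vector. SDHC, a succinate dehydrogenase subunit, was 7.46 CPM in vector, 9.29 in YAP, 17.1 in YAP/TEAD4-FL, 12.3 in YAP/TEAD4-S and 13.0 in YAP/RBM4. IDH3B, a subunit of isocitrate dehydrogenase, was 6.06, 9.29, 16.7, 8.62 and 10.7 CPM in the same order. Of the 17 genes, 4 were at least 2-fold above vector in YAP/TEAD4-FL and 0 below, and 2 were above and 0 below in YAP/RBM4, where 8.90% and 9.22% of all genes were 2-fold above.

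The 8 pentose phosphate genes, which make ribose and NADPH from glucose 6-phosphate, had medians of -0.28 in YAP, -0.21 in YAP/TEAD4-FL, -0.23 in YAP/TEAD4-S and 0.04 in YAP/RBM4. The all-gene medians were 0.00060, 0.09, -0.29 and 0.17 in the same order. The list thus lay below the rest of the genes in YAP, YAP/TEAD4-FL and YAP/RBM4 and slightly above them in YAP/TEAD4-S. PGD, which makes NADPH, was 55.0 CPM in vector, 34.3 in YAP, 39.2 in YAP/TEAD4-FL, 26.9 in YAP/TEAD4-S and 51.5 in YAP/RBM4. TKT, a transketolase, was 113, 121, 184, 106 and 172 CPM in the same order. PGD was thus lowest in YAP/TEAD4-S and TKT highest in YAP/TEAD4-FL.

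Of the 9 reference genes, 8 were above vector in YAP/TEAD4-FL and 8 in YAP/RBM4, against 4 in YAP and 5 in YAP/TEAD4-S. ACTB and the exception, B2M, are named after their values were seen. ACTB was 512 CPM in vector and 771 to 960 CPM in the other lines, and B2M was 34.0 CPM in vector and 14.3 to 26.0 CPM elsewhere.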
